A study of Mus musculus with 18 samples.

Results

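The 9 complement genes C3, C1qa, C1qb, C1qc, C4b, Serping1, C1ra, C3ar1 and Cd55, were followed across 3 treatments of the mouse left ventricle. They were chosen by name, and all 9 of 9 were found among the 48709 genes of the deposited count table. Polyadenylated RNA was sequenced in 18 libraries from male wild-type C57BL/6J mice, 6 libraries for each group, and the mice were 12 weeks old. Isoproterenol mice received isoproterenol, an agonist of β-adrenergic receptors, at 30 mg/kg/day from an osmotic pump, with saline injections into the peritoneum. Mice given both drugs received the same infusion and daily intraperitoneal minocycline, a tetracycline antibiotic, at 50 mg/kg. Control mice received saline by pump and by injection, and tissue was taken after 21 days. Every group therefore carried a pump and daily injections, and no group received minocycline alone. The contrasts ask how isoproterenol changed the complement transcripts and whether minocycline altered that response.

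Complement is a cascade of plasma and tissue proteins that tags cells and debris for removal. In the classical pathway the recognition protein C1q, built from the products of C1qa, C1qb and C1qc, carries the proteases C1r and C1s. C1r activates C1s, which cuts C4 and C2. All pathways meet at C3, whose cleavage gives the opsonin C3b and the signalling peptide C3a. C3a acts on the receptor encoded by C3ar1. Serping1 encodes the C1 inhibitor, which blocks C1r and C1s, and Cd55 encodes decay-accelerating factor, a membrane protein that takes the C3 convertases apart. In the heart, resident macrophages are a known source of C1q, while fibroblasts and other stromal cells are known to make C3, C4, C1r, C1s and the C1 inhibitor.

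The members lie at 7 places in the genome, with coordinates on GRCm38 as the deposited table gives them. C1qb (ENSMUSG00000036905, chr4:136880129-136886187), C1qc (ENSMUSG00000036896, chr4:136889804-136893065) and C1qa (ENSMUSG00000036887, chr4:136895917-136898803) sit side by side on the minus strand within 18675 bases. C3 (ENSMUSG00000024164) spans chr17:57203970-57228136 and C4b (ENSMUSG00000073418) chr17:34728380-34743882, both on the minus strand. Serping1 (ENSMUSG00000023224) lies at chr2:84765387-84775444 and Cd55 (ENSMUSG00000026399) at chr1:130439027-130462744, both on the minus strand. C1ra (ENSMUSG00000055172) is on the plus strand at chr6:124512405-124523443, and C3ar1 (ENSMUSG00000040552) on the minus strand at chr6:122847138-122856161. C1s1, which encodes the partner protease of C1r, lies on the opposite strand, and 6901 bases separate the ends of the 2 genes.

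Some members have near copies. Of the 100-base windows in the C1ra transcript, 34.5% also occur in C1rb. The share was 16.5% for C4b with C4a and 5.5% for Cd55 with Cd55b. Over the 18 libraries the table holds 1 count for C1rb, 76 for C4a and 0 for Cd55b, against 7962 for C1ra, 12216 for C4b and 4187 for Cd55. How the counting program treated reads that match both copies is not given in the sources used here, so these 3 genes carry that uncertainty.

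RefSeq start regions on GRCm38.p6 were at hand for 6 members (C3, C1qb, C1qc, C1ra, C3ar1 and Cd55), and C1qa, C4b and Serping1 were not in the table. The 250 bases before the start of 4 of them are shown, all from the minus strand and written 5′ to 3′. They were picked because C3, C1qb and C1qc varied together between libraries (Pearson r of 0.88 to 0.94), and Cd55 had lower r with them (0.38 to 0.59). C1ra, not shown, had r of 0.82 to 0.89 with C3, C1qb and C1qc. The 4 shown include every member with a pattern match, so they do not tie matches to shared variation. RefSeq starts can differ from the deposited coordinates. Part of the C1qc window lies inside its deposited gene span, which ends at 136893065. Most of the C1ra window (chr6:124512371-124512620, not shown) lies inside its span, which starts at 124512405, and the C3ar1 window overlaps its span slightly. Capitals mark the matches to the letter patterns listed after the sequences.
C3, chr17:57228137-57228386: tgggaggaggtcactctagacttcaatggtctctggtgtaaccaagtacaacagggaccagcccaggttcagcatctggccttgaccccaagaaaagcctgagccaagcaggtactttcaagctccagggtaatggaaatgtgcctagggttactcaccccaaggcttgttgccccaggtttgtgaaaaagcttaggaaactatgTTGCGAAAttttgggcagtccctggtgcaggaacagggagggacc
C1qb, chr4:136886201-136886450: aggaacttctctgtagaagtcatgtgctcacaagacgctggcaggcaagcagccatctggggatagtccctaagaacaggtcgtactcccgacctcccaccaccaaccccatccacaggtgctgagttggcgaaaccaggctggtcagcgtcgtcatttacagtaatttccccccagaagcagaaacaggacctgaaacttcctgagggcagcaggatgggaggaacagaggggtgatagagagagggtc
C1qc, chr4:136892915-136893164: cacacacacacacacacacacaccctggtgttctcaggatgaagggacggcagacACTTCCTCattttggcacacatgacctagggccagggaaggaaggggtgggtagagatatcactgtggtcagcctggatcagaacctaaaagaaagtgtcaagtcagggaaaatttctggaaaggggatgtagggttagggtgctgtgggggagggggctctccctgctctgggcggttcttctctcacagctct
Cd55, chr1:130462745-130462994: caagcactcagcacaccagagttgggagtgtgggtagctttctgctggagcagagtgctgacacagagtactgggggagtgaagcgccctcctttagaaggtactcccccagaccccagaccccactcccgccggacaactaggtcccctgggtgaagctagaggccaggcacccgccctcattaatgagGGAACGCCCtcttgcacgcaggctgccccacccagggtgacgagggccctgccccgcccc

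A set of 5 letter patterns of factors known in inflammatory and myeloid genes were searched on both strands of these windows. TTGCNNAA, a C/EBP-type pattern, matched in C3 as TTGCGAAA on the plus strand of the gene, starting 45 bases before the start site, and it occurs in 9.6% of 32851 promoter windows. GAGGAAGT, an ETS-type pattern of the kind bound by PU.1, matched in C1qc on the opposite strand 195 bases before the start, and 2.4% of windows hold it. GGGNNTTCC, an NF-κB-type pattern, matched in Cd55 on the opposite strand as GGAACGCCC, 60 bases before the start, and 5.0% of windows hold it. TTCNNNGAA, a STAT-type pattern found in 7.0% of windows, and GAAANNGAA, an interferon-response type found in 7.1%, matched in 0 of the 6 members. C1qb, C1ra and C3ar1 held no match to any of the 5 patterns. These are matches of letters only.

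Library totals lay between 14203041 and 22688664 counts, and mitochondrially encoded genes took 40.07 to 47.65% of them. Summed cardiomyocyte markers reached at least 37194 CPM (counts scaled to library size, with TMM factors) in every library. A group of 4 libraries (Control 5 and 6, Isoproterenol 5, and Isoproterenol and minocycline 2) held more than 80 CPM of the atrial marker Myl7. Calls of members that were lost without them are given below. Isoproterenol 5 also had the lowest total and the lowest mitochondrial share.

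In all, 7 of the 9 members were higher after isoproterenol than in control ventricles: C3, the C1q genes C1qa, C1qb and C1qc, C1ra, Serping1 and Cd55. Their fitted rises ran from 1.30-fold for Cd55 to 1.75-fold for C3. C4b and C3ar1 had differences in the same direction that did not pass the test. With minocycline added, 8 of the 9 were higher than in control, C4b now among them, and C3 reached 2.11-fold. Between the isoproterenol groups with and without minocycline no member passed the test. Calls rest on edgeR's quasi-likelihood test, with p-values adjusted by the Benjamini-Hochberg method over 13281 tested genes, all 9 members included, and a threshold of 0.05.

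Of all genes tested, 6.94% were called higher and 5.62% lower after isoproterenol, 12.6% in either direction, against 7 of 9 members higher and 0 lower. The median log2 fold change was 0.50 over the members and 0.0011 over all genes. For both drugs against control, 10.2% of all genes were called higher and 9.05% lower, 19.3% in either direction, against 8 of 9 members higher and 0 lower. The members' median log2 fold change was then 0.56, against 0.0035 for all genes. The ranges of the groups did not overlap, with the treated group higher, for 5 of 9 members in each contrast with control, against 3.66% of all genes for isoproterenol and 3.55% for both drugs. Both contrasts use the same 6 control libraries, so they are not independent. Without the 4 libraries high in Myl7, only C3, Serping1 and C1ra of the members were called after isoproterenol. The adjusted p was then 0.0528 for C1qa, 0.0956 for C1qb and 0.0532 for C1qc. The count of all genes called fell from 1669 to 681 in the same fit, and leaving out Control 4 alone took it to 1079.

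**Figure D1:**
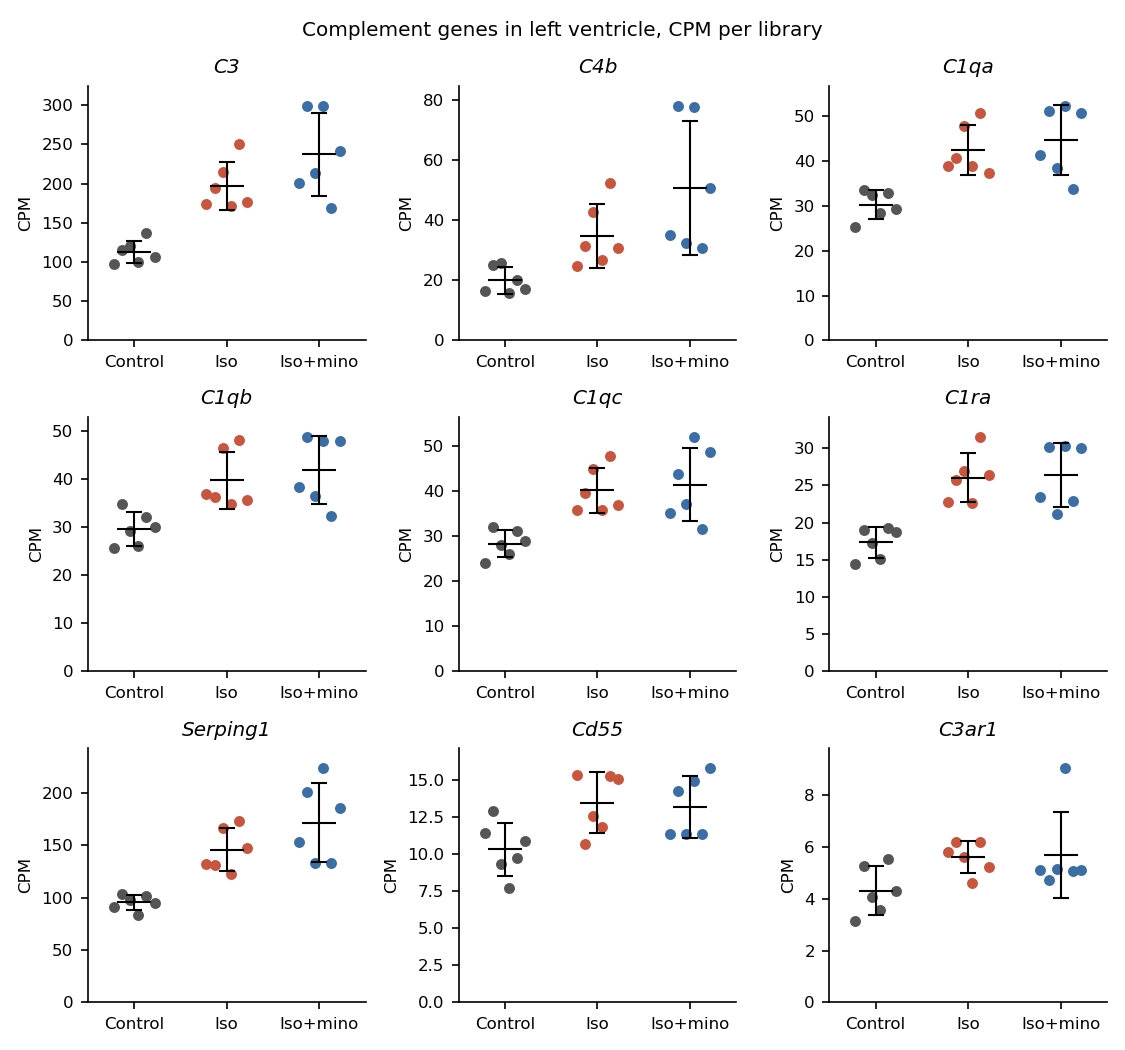
Normalised level (CPM, linear axis from 0) of the 9 complement genes in each of 18 libraries, with points for libraries, a bar for the group mean and whiskers for 1 SD (n = 6). All 6 isoproterenol libraries lie above all control libraries for C3, C1qa, C1qc, C1ra and Serping1, while C4b spreads from 30.7 to 78.1 CPM in the group given both drugs.

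C3, the point where all complement pathways meet, was at 97.8, 115, 120, 100.5, 136 and 106 CPM in control libraries 1 to 6. Isoproterenol libraries held 175, 195, 215, 172, 250 and 177 CPM. With minocycline added the values were 201, 300, 213, 299, 169 and 242 CPM. No library of either treated group fell within the control range, and the treated groups overlapped each other. The mean rose from 113 ± 14.4 CPM to 197 ± 30.7 CPM after isoproterenol (SD, n = 6), a log2 fold change of 0.81 (SE 0.13, 95% CI 0.53 to 1.08, edgeR adjusted p = 5.39e-04). With both drugs it was 237 ± 53.3 CPM, a log2 fold change of 1.07 over control (SE 0.13, edgeR adjusted p = 2.18e-05).

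C4b encodes complement C4, the substrate that C1s cuts to start the classical C3 convertase. Its control libraries lay between 15.7 and 25.8 CPM (median 18.6). Isoproterenol libraries ran from 24.7 to 52.5 CPM (median 31.1), and those with both drugs from 30.7 to 78.1 CPM (median 42.8). In C4b 5 of 6 isoproterenol libraries and all 6 with both drugs were above every control library. C4b had the widest spread of the members in the group given both drugs, with a coefficient of variation of 43.7%, because libraries 2 and 4 held 78.1 and 77.8 CPM and the other 4 held at most 50.6. The difference after isoproterenol was 0.80 on the log2 scale (SE 0.27, 95% CI 0.23 to 1.36, edgeR adjusted p = 0.0620) and was not called. It passed the threshold in 6 of 28 alternatives. Among them were DESeq2 (adjusted p = 0.0336), limma-voom (0.0324) and the 12 control and isoproterenol libraries fitted alone (0.0217). Another was a fit with a covariate made from the atrial markers Sln, Myl7 and Myl4 (0.87 on the log2 scale, edgeR adjusted p = 0.0105). In the other 22 the difference was not called, and without the 4 libraries high in Myl7 it was 0.60 on the log2 scale (edgeR adjusted p = 0.258). Against control, both drugs together gave 1.34 (SE 0.27, edgeR adjusted p = 0.00246), the largest log2 fold change among the 9 members.

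The 3 chains of C1q had similar levels and differences. C1qa ranged from 25.3 to 33.4 CPM in control (median 30.8), from 37.3 to 50.7 after isoproterenol (median 39.7) and from 33.8 to 52.3 with both drugs (median 46.0). Both treated groups lay wholly above control. C1qc ran from 24.0 to 32.0 CPM, from 35.8 to 47.7 and from 31.5 to 52.0 in the same order, with medians of 28.4, 38.2 and 40.4. Isoproterenol libraries did not overlap control, and 1 library with both drugs did. C1qb ran from 25.7 to 34.9 CPM, from 34.8 to 48.2 and from 32.2 to 48.8, with medians of 29.6, 36.5 and 43.0, and 1 library of each treated group lay within the control range.

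After isoproterenol the log2 fold changes were 0.48 (SE 0.11, edgeR adjusted p = 0.00533) for C1qa, 0.50 (SE 0.11, 0.00589) for C1qc and 0.42 (SE 0.11, 0.0185) for C1qb. Their intervals overlap almost wholly, so the data give no order among the chains. The C1qb call was lost without Control 4 (edgeR adjusted p = 0.0506) and without Isoproterenol 5 (edgeR adjusted p = 0.0546). With both drugs against control the values were 0.56 for C1qa, 0.55 for C1qc and 0.50 for C1qb, with adjusted p of 0.00113, 0.00205 and 0.00421.

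C1ra encodes the protease that activates C1s inside the C1 complex. Control libraries ran from 14.5 to 19.3 CPM (median 18.02), isoproterenol libraries from 22.6 to 31.6 (median 26.1) and those with both drugs from 21.2 to 30.3 (median 26.8). Neither treated group overlapped control. The log2 fold changes over control were 0.58 (SE 0.11, edgeR adjusted p = 0.00104) for isoproterenol and 0.60 (edgeR adjusted p = 4.74e-04) for both drugs.

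Serping1, the inhibitor of C1r and C1s, rose together with the proteases it blocks. Its control libraries held 91.2, 103, 98.0, 83.5, 101 and 94.8 CPM. Isoproterenol libraries held 132, 131, 167, 123, 173 and 147 CPM. The group given both drugs held 153, 201, 133, 224, 133 and 185 CPM, so that libraries 2, 4 and 6 stood above the other 3 by more than 30 CPM. No treated library overlapped control. The log2 fold change was 0.61 (SE 0.12, 95% CI 0.36 to 0.86, edgeR adjusted p = 0.00227) after isoproterenol and 0.85 (SE 0.12, edgeR adjusted p = 7.38e-05) with both drugs.

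Cd55, the membrane brake on C3 convertases, ran from 7.69 to 12.9 CPM in control (median 10.3), from 10.7 to 15.3 after isoproterenol (median 13.8) and from 11.3 to 15.8 with both drugs (median 12.8). Only 3 libraries of each treated group exceeded every control library. The log2 fold change was 0.38 (SE 0.13, edgeR adjusted p = 0.0484) after isoproterenol and 0.36 (edgeR adjusted p = 0.0491) with both drugs. Both calls stood just inside the threshold and were lost in 16 and 17 of 28 alternative fits, RLE and upper-quartile scaling among them. Without the 4 libraries high in Myl7 the edgeR adjusted p was 0.233 after isoproterenol and 0.183 with both drugs.

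C3ar1, the receptor of C3a, was the least abundant member, with 51 to 167 counts per library. Control libraries ran from 3.14 to 5.53 CPM (median 4.20), isoproterenol libraries from 4.62 to 6.20 (median 5.73) and those with both drugs from 4.74 to 9.08 (median 5.11). The groups overlapped, although 4 of 6 isoproterenol libraries lay above every control library. The differences of 0.37 and 0.39 on the log2 scale were not called (edgeR adjusted p = 0.136 and 0.0892). A single library, Isoproterenol and minocycline 4, held 9.08 CPM and set the top of its group alone. Without it the difference after isoproterenol alone reached an edgeR adjusted p of 0.0493, and that for both drugs fell to 0.22 on the log2 scale.

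**Figure D2:**
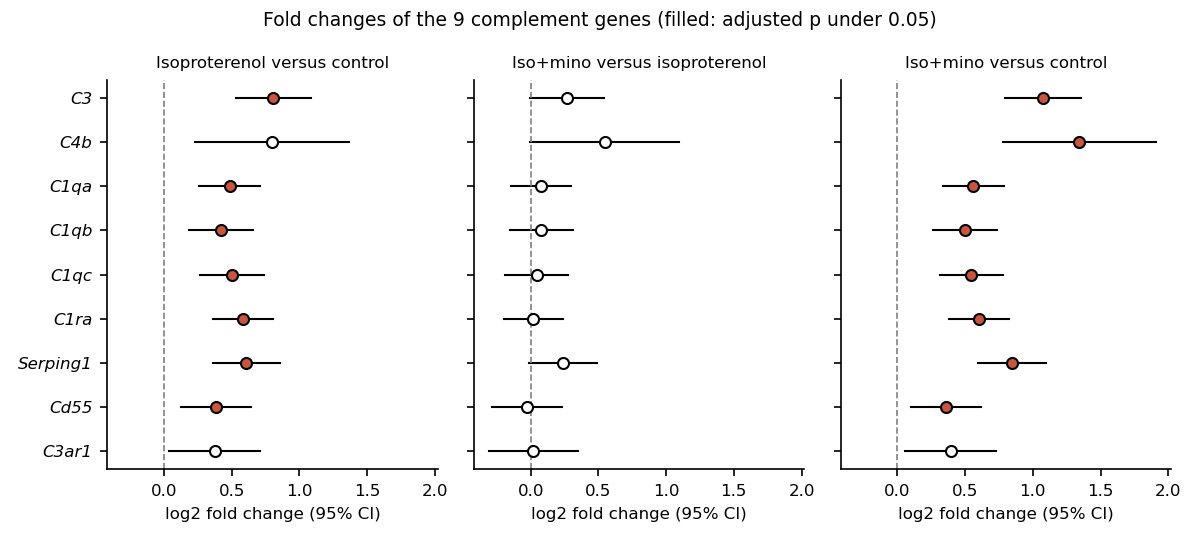
Log2 fold changes of the 9 genes in the 3 contrasts (points, with 95% confidence intervals; filled points have an adjusted p under 0.05). C3 stands at 0.81 after isoproterenol and 1.07 with both drugs, and every interval in the middle panel includes 0.

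Adding minocycline to isoproterenol moved no member past the threshold. Of all genes tested, 0.0527% were called in this contrast, 7 genes in all (0.00753% higher and 0.0452% lower). Among the members edgeR called 0, 0 had an unadjusted p under 0.05, and limma-voom and DESeq2 also called 0. DESeq2 gave no adjusted p for 7 of the 9. The ranges of the treated groups overlapped for all 9 members, and 0.188% of all genes had a wholly higher range with minocycline.

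The largest differences in this contrast were in C4b, at 0.55 on the log2 scale (95% CI -0.0050 to 1.10, edgeR adjusted p = 0.660), C3 at 0.27 (-0.0071 to 0.54, 0.673) and Serping1 at 0.24 (-0.010 to 0.49, 0.681). All 3 intervals include 0, with their lower ends at -0.010 or above. With a covariate made from Sln, Myl7 and Myl4, which mark atrial tissue, the differences were smaller, 0.34 for C4b, 0.14 for C3 and 0.15 for Serping1. Without Isoproterenol and minocycline 4, Serping1 stood at 0.15. With each library left out in turn, C4b ran from 0.39 to 0.70, C3 from 0.19 to 0.35 and Serping1 from 0.15 to 0.30. The lowest edgeR adjusted p in those fits was 0.441 for C4b, 0.377 for C3 and 0.415 for Serping1. The remaining 6 members lay between -0.027 for Cd55 and 0.079 for C1qb. The members' median was 0.077, against -0.0026 for all genes. Cd55 was the only member with a negative estimate, and the direction of C1qa, C1qb, C1qc, C1ra, C3ar1 and Cd55 changed with the fit.

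Per unit of length (TPM as deposited), Serping1 was the most abundant member in every group, at 59.0 ± 5.65 TPM in control (SD, n = 6). C1qa (41.8 ± 4.85 TPM), C1qb (39.3 ± 5.64), C3 (31.5 ± 4.02) and C1qc (21.1 ± 2.73) followed. C1ra (8.38 ± 1.23 TPM), C4b (5.05 ± 1.14), Cd55 (3.07 ± 0.615) and C3ar1 (1.45 ± 0.335) closed the order. Ranges overlapped for the neighbours C1qa and C1qb, C1qb and C3, and C4b and Cd55, though each of these pairs kept its order in all 6 control libraries. With both drugs C3 stood second at 72.0 ± 16.8 TPM, above C1qa in 4 of 6 libraries. C4b stood sixth at 13.9 ± 6.21 TPM, above C1ra in only 2 of 6 libraries, so that pair has no clear order.

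The C1q chains stood in similar proportions in all groups. The TPM ratio of C1qa to C1qb was 1.07 ± 0.0659 in control, 1.12 ± 0.0395 after isoproterenol and 1.11 ± 0.0201 with both drugs. The ratio of C1qa to C1qc was 1.99 ± 0.0891, 1.96 ± 0.0594 and 2.01 ± 0.137. C1ra stood at 0.688 ± 0.0763, 0.698 ± 0.0272 and 0.670 ± 0.0667 of C1s1, its partner protease. None of these ratios separated the groups. The ratio of C3 to Serping1 ran from 0.485 to 0.608 in control, from 0.544 to 0.674 after isoproterenol and from 0.576 to 0.725 with both drugs.

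Members also varied together within groups. After the group means of log2-CPM were removed, 30 of the 36 pairs correlated over the 18 libraries at an adjusted p under 0.05 (Pearson r, 2-sided permutation within groups, 100000 draws). The share of all gene pairs that would pass was not determined. C3, C4b, C1qa, C1qb, C1qc, C1ra and Serping1 formed 21 pairs with r from 0.82 to 0.96 and Spearman's rho from 0.81 to 0.93. The largest adjusted permutation p among these pairs was 5.66e-04 for r and 8.40e-04 for rho. Without the 2 libraries farthest from the median the lowest r was 0.79. The strongest pair was C1qa with C1qb (r = 0.96), and C4b followed Serping1 (r = 0.93) and C3 (r = 0.91). Genes outside the members reached r of 0.92 to 0.96 with each of these genes, so such values were not particular to complement genes.

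C3ar1 and Cd55 had lower pooled r with the other 7, from 0.48 to 0.67 for C3ar1 and from 0.38 to 0.63 for Cd55, and the difference from the other pairs was not tested. Of these pairs 6 of 7 with C3ar1 and 3 of 7 with Cd55 had an adjusted permutation p under 0.05. The values differed between groups of 6 libraries. C3ar1 had r of 0.59 to 0.98 with the 7 in control, 0.46 to 0.63 after isoproterenol and 0.34 to 0.58 with both drugs. Cd55 had 0.024 to 0.64, 0.083 to 0.44 and 0.79 to 0.95 in the same order. Without the 2 libraries farthest from the median of C3, r of C3 with C3ar1 was 0.77 instead of 0.57. The pair of C3ar1 and Cd55 had r = 0.29 and rho = 0.40, with permutation p of 0.299 and 0.120. C3ar1 also had the lowest counts, and their part in these values was not tested.

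**Figure D3:**
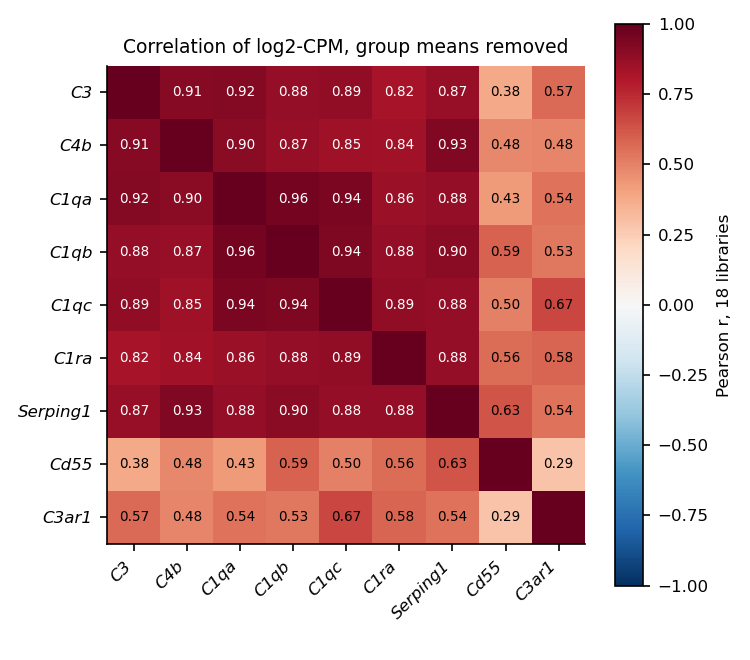
Pearson r of log2-CPM over 18 libraries after removal of the group means, for each pair of the 9 genes (colour scale from -1 to 1). The 7 genes C3 to Serping1 form a block of 0.82 to 0.96, and pairs with C3ar1 or Cd55 have values of 0.29 to 0.67.

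The genes most like each member were sought among 9032 genes of at least 5 CPM by the same r over 18 libraries, as a description. C3 was nearest to Gpx3 (r = 0.95), Csf1r (0.94) and Lyz2 (0.93). C1qa was nearest to Fcgr3, Olfml3 and Prg4 (0.93 to 0.94), C1qc to Prg4, Lyz2 and Fcgr3 (0.94 each), and C1qb to Mmp23, Laptm5 and Serpinf1 (0.94 to 0.95). C4b was nearest to Olfml3, Ccdc80 and Ecm1 (0.93 to 0.95), Serping1 to Olfml3, Ecm1 and Laptm5 (0.95 to 0.96), and C1ra to Grn, Csf1r and Ecm1 (0.92 to 0.93). Csf1r, Lyz2, Fcgr3 and Laptm5 are known as genes of myeloid cells, and Ccdc80, Ecm1 and Olfml3 encode secreted or matrix proteins. C3ar1 had other neighbours, Hdac7, Cav1 and Gcnt2 (0.87 to 0.89), as did Cd55 with Frzb, Slc39a7 and Mthfsd (0.83 to 0.88).

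Summed markers of macrophages and fibroblasts had higher medians in both treated groups than in control. The summed level of 15 macrophage markers ran from 210 to 277 CPM in control, from 286 to 390 after isoproterenol and from 292 to 472 with both drugs. Lyz2 alone averaged 132 CPM over the 18 libraries. The sum is unweighted, so the ratios and correlations below that use it lean on this gene. Of the 15 macrophage markers 7 were called higher after isoproterenol and 8 with both drugs. Ms4a7 had the largest rise after isoproterenol, 1.30 on the log2 scale, while Folr2, Cx3cr1, Lyve1 and Cd163 were not called there, with differences of -0.26 to 0.03. The 10 fibroblast markers summed to 1552 to 2166 CPM, 2118 to 2919 CPM and 2060 to 3443 CPM in the same order, with 4 and 8 called higher. Smooth muscle and pericyte markers, 7 in all, summed to 777 to 907 CPM, 908 to 1049 CPM and 906 to 1141 CPM, with 2 and 3 called higher. Of 5 mast cell markers 3 and 4 were called higher, with Kit called lower with both drugs, and their sums ran from 4.89 to 8.16, from 6.91 to 12.04 and from 7.13 to 13.7 CPM. Endothelial markers, 7 in all, had 0 and 1 called higher. Summed cardiomyocyte markers ran from 45059 to 50483 CPM in control, from 38450 to 43017 after isoproterenol and from 37194 to 47785 with both drugs. Neutrophil markers stayed at or below 3.92 CPM summed, with Ly6g at 0, and lymphocyte markers at or below 1.71 CPM. The part of these cell types in the members' rise was not tested, and in bulk tissue more cells of a type and more RNA per cell cannot be told apart.

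Set against the summed macrophage markers, the C1q genes did not separate the groups. C1qa stood at 11.8 to 13.5 CPM per 100 CPM of macrophage markers in control, 11.6 to 13.5 after isoproterenol and 11.1 to 14.2 with both drugs. C1qb and C1qc overlapped likewise, with 10.1 to 13.3 and 10.2 to 12.7 over the 18 libraries. C3ar1 also overlapped, at 1.47 to 2.00, 1.54 to 2.01 and 1.10 to 1.92.

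C3 did separate. It stood at 43.7 to 49.7 CPM per 100 CPM of macrophage markers in control, at 56.0 to 64.1 after isoproterenol and at 57.8 to 69.6 with both drugs, so that no treated library reached down to a control library. Per 100 CPM of fibroblast markers C3 stood at 5.31 to 7.36, 7.58 to 8.57 and 7.91 to 10.3, again without overlap with control. C4b per 100 CPM of macrophage markers ran from 7.04 to 10.6, from 8.51 to 13.4 and from 10.1 to 18.1, with overlap. Serping1 per 100 CPM of fibroblast markers ran from 4.76 to 6.00, from 5.46 to 6.59 and from 5.94 to 6.76, also with overlap.

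**Figure D4:**
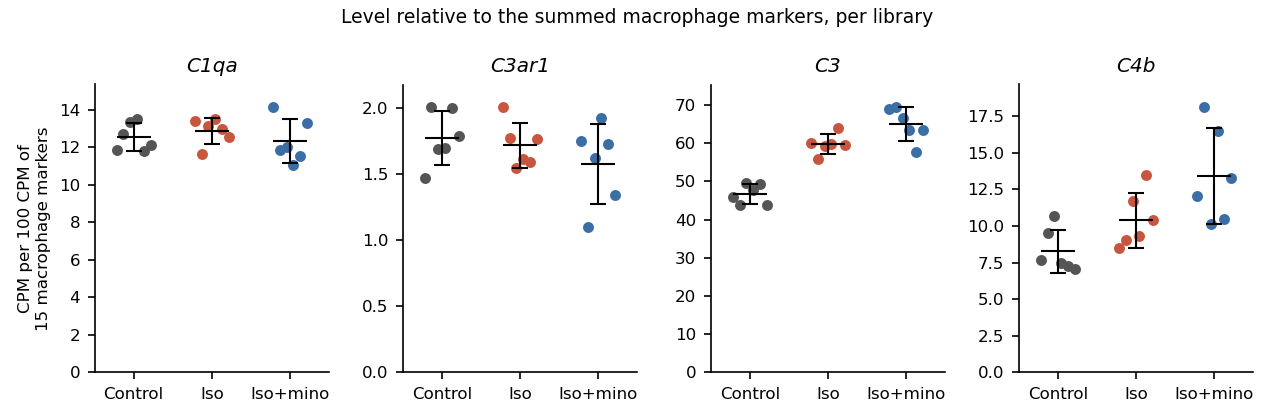
Level of C1qa, C3ar1, C3 and C4b per 100 CPM of 15 summed macrophage markers in each library (points; bar and whiskers, mean and 1 SD, n = 6; linear axes from 0). C1qa and C3ar1 overlap between groups, while C3 lies at 43.7 to 49.7 in control and at 56.0 or above in all 12 treated libraries.

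Over the 18 libraries, with group means removed, each member was correlated with the summed macrophage, fibroblast, endothelial and cardiomyocyte markers. These 36 relations were tested by 2-sided permutation within groups, with Benjamini-Hochberg adjustment over the 36. C3 followed macrophage markers at r = 0.94 (rho = 0.95, adjusted permutation p = 1.80e-04 for r) and fibroblast markers at 0.86. Serping1 followed fibroblast markers at r = 0.93 (rho = 0.92, adjusted permutation p = 1.80e-04 for r). C1qc followed macrophage markers at 0.93 and C1ra fibroblast markers at 0.91. Without the 2 libraries farthest from the median these 4 leading values were 0.95, 0.89, 0.91 and 0.90. For C3, C4b, C1qa, C1qb, C1qc, C1ra and Serping1, r with the macrophage or the fibroblast sum lay between 0.85 and 0.94. Cd55 had r = 0.44 with macrophage markers (adjusted permutation p = 0.114) and 0.64 with fibroblast markers (0.0190). C3ar1 had r = 0.68 with macrophage markers (adjusted permutation p = 0.00173), 0.61 with endothelial markers (0.0202) and 0.58 with fibroblast markers (0.0198). Without the 2 libraries farthest from the median of each sum these were 0.56, 0.56 and 0.64. No other member passed with endothelial markers, where r ran from 0.12 for C4b to 0.51 for C1qc. With cardiomyocyte markers r was negative for all 9 members, from -0.68 for Serping1 to -0.38 for C3ar1, and it passed for Serping1, Cd55, C1ra and C1qb (adjusted permutation p of 0.0346, 0.0238, 0.0401 and 0.0488).

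The rest of the complement system gives the setting. Of 43 further complement genes found, 23 passed the filter on low counts, and 8 of these were called higher after isoproterenol and 11 with both drugs, with 0 lower in either. In minocycline added to isoproterenol edgeR called 0 of the 23, and 2 of them, Cd59a among them, had an unadjusted p under 0.05. Their median log2 fold changes were 0.32, 0.055 and 0.62 for isoproterenol, added minocycline and both drugs. Without the 4 libraries high in Myl7, the count over all 32 tested complement genes, members included, fell from 15 to 7 after isoproterenol.

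In the classical pathway C1s1, the protease activated by C1r, rose alongside C1ra, from 26.6 ± 3.38 to 39.2 ± 5.38 CPM (SD, n = 6), with log2 fold changes of 0.56 and 0.64 after isoproterenol and both drugs. With the members, 5 and 6 of 7 tested classical genes were called. C2 was tested and was not called. It shares its locus with Zbtb12 on the opposite strand, which holds more counts. On the same strand it overlaps Gm20547, which holds 77.06% as many counts as C2. In the lectin pathway edgeR called 0 of 3 tested genes (Fcna, Colec11 and Masp1, which overlaps Rtp4), with differences of 0.11 to 0.19 on the log2 scale after isoproterenol and 0.15 to 0.51 with both drugs.

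In the alternative pathway 2 of the 3 genes other than C3, Cfb and Cfp, were called higher in both contrasts with control. Cfb, which encodes the protease factor B, went from 0.913 ± 0.490 to 2.89 ± 0.818 CPM after isoproterenol, a log2 fold change of 1.63, and stood at 1.90 above control with both drugs. Control 1 held 0 CPM of Cfb, and the other control libraries held 0.731 to 1.34 CPM (group median 1.12). Cfb overlaps Gm20547, which holds 19.7% as many counts. Cfp, which encodes properdin, the stabiliser of the alternative convertase, rose by 0.60 and 0.66. Cfd, encoding factor D, varied from 0.308 to 20.9 CPM between libraries and was not called. Of the terminal pathway, C7 alone was called, at 0.80 with both drugs, and 5 of its 7 genes were too low to test.

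Among the soluble regulators, Clu, encoding clusterin, rose by 0.27 and 0.37 on the log2 scale in isoproterenol and both drugs. Cd55 was the only one of 5 tested membrane regulators to be called. Cr1l, the rodent regulator Crry, was not called, at 37.1 ± 0.623, 36.8 ± 1.44 and 36.3 ± 1.99 CPM, and Cd59a, an inhibitor of the terminal complex, had 56.3 ± 4.38, 59.5 ± 6.96 and 51.9 ± 5.12 CPM.

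Of 6 tested complement receptors, 3 were called higher after isoproterenol and 4 with both drugs, and C3ar1 and C5ar2 were called in neither contrast. C5ar1, the receptor of C5a, went from 2.68 ± 0.420 to 5.31 ± 1.21 CPM after isoproterenol (log2 fold change 0.99, edgeR adjusted p = 6.78e-04). Itgax and Itgb2, which together form complement receptor 4, rose by 1.47 and 0.63. Itgax rose from a low level of 0.472 ± 0.164 CPM, with 5 to 12 counts per control library. Vsig4, a macrophage receptor of C3b, was called with both drugs (0.84) and not after isoproterenol alone (0.46, edgeR adjusted p = 0.152). C5ar2, another receptor of C5a, had log2 differences of 0.28 and -0.029. Ptx3, a pentraxin that binds C1q, rose by 2.36 and 2.57 from a low level of 0.210 ± 0.113 CPM. Differences between these genes and C3ar1 were not tested.

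**Figure D5:**
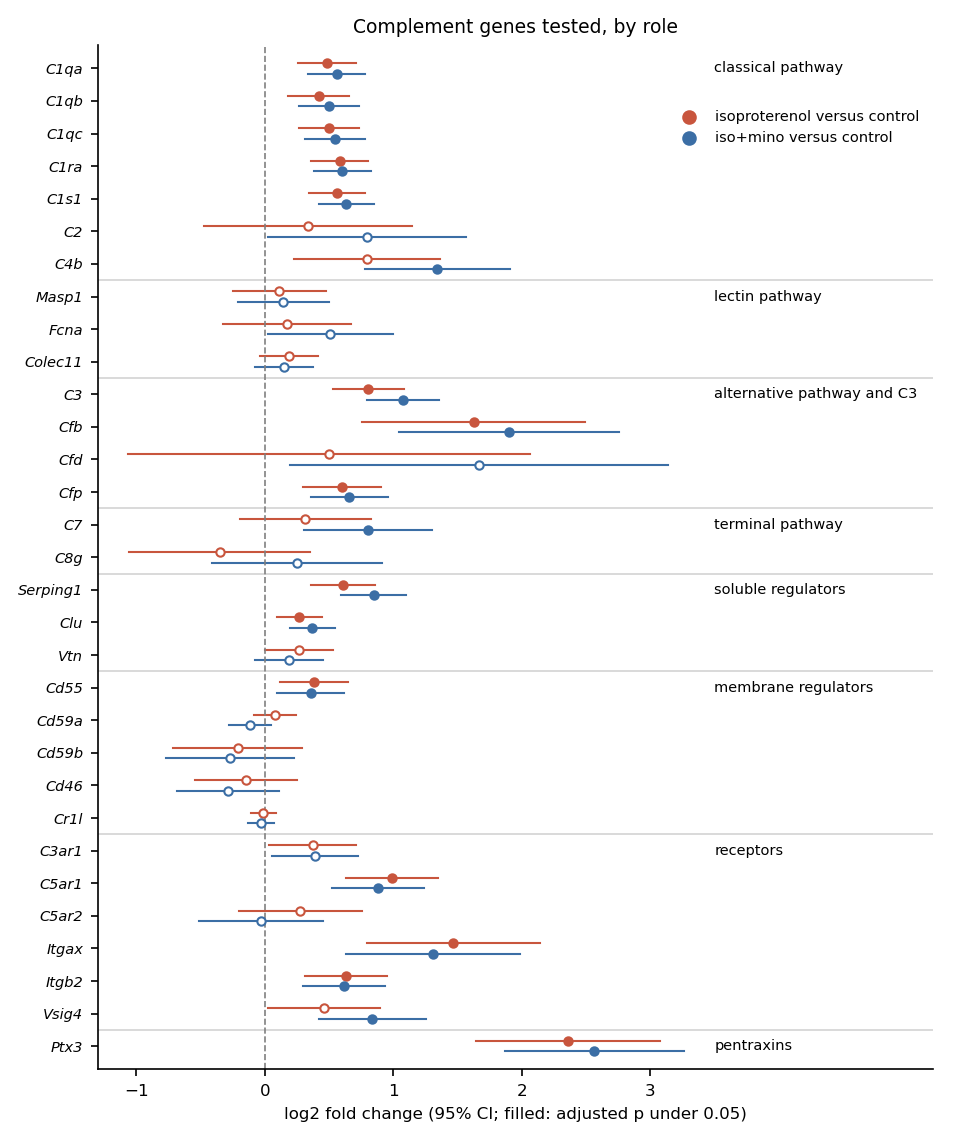
Log2 fold changes with 95% confidence intervals of 31 of the 32 tested complement genes, grouped by role, after isoproterenol and after both drugs against the same 6 control libraries (filled points, adjusted p under 0.05). Filled points are all above 0, 15 for isoproterenol and 18 for both drugs, and Ptx3 lies farthest out at 2.36 and 2.57.

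A further 20 complement genes had too few counts to test. Of these, 6 (Mbl1, Mbl2, Fcnb, C8b, Cd55b and Apcs) had 0 counts in all 18 libraries, and C4a had the most, 76 in total. Hc, which encodes C5, had 13 counts over all libraries, and C6 had 47. These genes could not be compared at this depth.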

How the data were processed

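Reads of polyadenylated RNA were trimmed and analysed by the authors in CLC Genomics Workbench 21.0.3, per the labels' protocols, and the submitters' processing notes name edgeR without a role. How reads were mapped, to which build and annotation, and whether strand was used is not given in the sources used here. Counts per gene were used as deposited by the authors, and positions of the 9 members equal those of GENCODE M21 on GRCm38. TPM values, also as deposited by the authors, served only to set levels of different genes side by side. Columns were matched to libraries by the number in the description label, and 0 columns were left unmatched. The protocol speaks of pooled RNA, so p-values measure the spread between libraries, which may be technical.

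Counts of 18 libraries (14203041 to 22688664 per library) were fitted together with edgeR 4.0.16 in R 4.3.3, using TMM factors, filterByExpr by group, and robust quasi-likelihood tests of 3 contrasts. The 13281 genes kept held 99.93 to 99.95% of each library's counts, and the biological coefficient of variation was 13.2%. The script was tested on simulated data. No pair of libraries within a group agreed within counting noise (chi-square per degree of freedom 5.30 to 33.3). A prior count of 2 entered the log2-CPM values. Alternatives were DESeq2 1.42.0, limma-voom (limma 3.58.1), other scalings and filters, and fits with libraries left out.

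The members and gene lists were chosen with earlier results of these data known. Named are the 9 members, every gene of the complement lists that was called (1 is not reported here), and for each member the 3 genes of at least 5 CPM with the highest r. Itgam and C1s2 were not analysed here. Start regions come from RefSeq (GRCm38.p6).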

Additional observations from a re-analysis of the deposited data

Results flagged for a closer look

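C3ar1 in the library Isoproterenol and minocycline 4 stood at 9.08 CPM, far from the other 5 libraries of its group, the nearest of which held 5.17 CPM. On the log2-CPM scale the gap made up 0.867 of the range of the group, above Dixon's 95% critical value for 6 libraries. Of 27 groups of member values examined in this way 1 stood out, and chance alone marks about 1 in 20.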

How the results depend on the processing

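Without the 4 libraries above 80 CPM of Myl7, isoproterenol versus control called 681 genes (1669 with all libraries), 3 members and 7 complement genes, and both drugs versus control called 1369 genes (2557 with all). That fit has fewer libraries, and whether the lost calls come from Myl7 was not tested. With all 18 libraries and the covariate from Sln, Myl7 and Myl4, no member lost its call after isoproterenol. C4b was then called as well (edgeR adjusted p = 0.0105). With both drugs Cd55 lost its call under that covariate (edgeR adjusted p = 0.0582). In minocycline added to isoproterenol, 7 genes were called, against 33 with DESeq2, 2 with only the 12 libraries compared and 1 without the Myl7-high libraries. With each library left out in turn, genes called ranged from 1079 to 1877 for isoproterenol and from 1 to 13 for added minocycline. Members called then ranged from 5 to 9 for isoproterenol and from 7 to 8 for both drugs, and stayed at 0 for added minocycline in every fit run.

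Directions turned only in added minocycline, where no member was called. With the atrial covariate the log2 differences were -0.013 for C1qa, -0.014 for C1qb, -0.043 for C1qc, -0.059 for C1ra and -0.050 for C3ar1. With limma-voom they were -0.018 for C1qc, -0.017 for C1ra and -0.079 for C3ar1. With each library left out in turn they ranged from -0.031 to 0.11 for C1qc, from -0.023 to 0.085 for C1ra, from -0.16 to 0.077 for C3ar1 and from -0.086 to 0.017 for Cd55. The cause was not tested.

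C3, Serping1 and C1ra kept their call and direction against control in all 28 alternatives of both contrasts. Cd55 lost its call most often, and the lowest counts, those of C3ar1, limit what can be seen for that gene. No paired analysis was possible because the labels give libraries of different groups no shared number.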
